A study of Rattus norvegicus with 18 samples.

Results

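The genes of the interleukin-12 and interleukin-10 axis were followed in primary rat astrocytes and microglia that had been left untreated or exposed to fibrils of amyloid β-protein (Aβ). They were chosen by symbol, as Il12a, Il12b, Il23a, Il27, Ebi3, Il10, Il10ra, Il10rb, Il15 and Il16. Of these 10 genes, 9 are among the 17307 symbols of the astrocyte tables and the 17327 symbols of the microglia tables. Il27 is not among those symbols and was left out. RNA was sequenced in 18 libraries, with 3 replicates of each cell type without fibrils (control), with Aβ42 fibrils and with Aβ40 fibrils for 24 h. All cells were wild type, from the cortex of newborn Sprague–Dawley rats, and the treatments were given in serum-free medium. The microglia were shaken off mixed glial flasks and the astrocytes were the layer that stayed behind, so each culture can hold some cells of other types. Cell type and the way of isolation cannot be told apart in this design. No source says that the 3 replicates came from separate animals or cultures, so the p-values measure the spread between these libraries, which may be technical.

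Interleukin-12 family cytokines are made of 2 chains. The p40 chain encoded by Il12b pairs with p35 (Il12a) to form interleukin-12, or with p19 (Il23a) to form interleukin-23, and the Ebi3 chain pairs with p28 (Il27) or with p35. Activated macrophages, dendritic cells and microglia are known sources of these cytokines, which act on lymphocytes and other cells through receptors that signal by JAK kinases and STAT factors. Interleukin-10 (Il10) restrains the same myeloid cells. It binds a ligand-specific chain (Il10ra) that works with a chain shared by several related receptors (Il10rb) and signals mainly through STAT3. Interleukin-15 (Il15) supports natural killer and memory T cells, and interleukin-16 (Il16) is a CD4-binding chemoattractant cut from a larger precursor.

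The promoters of Il23a, which rose with fibrils in microglia, of Il15, which rose in astrocyte cultures and was too low to test in microglia, and of Il10ra and Il16, which fell in the cultures of both cell types, are shown because these are the members with a changed level for which the RefSeq promoter table has an entry. That table holds 7 of the 10 members on the GRCr8 build, with 1 start site for each gene. The 250 bases before that start are printed from 5′ to 3′ on the strand of the gene, with motif matches in capitals. Il23a lies on the minus strand at chr7:1308435-1308684, Il15 on the plus strand at chr19:42544456-42544705, Il10ra on the minus strand at chr8:54474787-54475036 and Il16 on the minus strand at chr1:147116743-147116992.
Il23a: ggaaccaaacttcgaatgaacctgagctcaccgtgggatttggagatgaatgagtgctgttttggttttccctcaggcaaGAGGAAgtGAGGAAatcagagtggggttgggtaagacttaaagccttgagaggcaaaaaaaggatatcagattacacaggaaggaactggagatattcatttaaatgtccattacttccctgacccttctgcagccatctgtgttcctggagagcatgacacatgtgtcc
Il15: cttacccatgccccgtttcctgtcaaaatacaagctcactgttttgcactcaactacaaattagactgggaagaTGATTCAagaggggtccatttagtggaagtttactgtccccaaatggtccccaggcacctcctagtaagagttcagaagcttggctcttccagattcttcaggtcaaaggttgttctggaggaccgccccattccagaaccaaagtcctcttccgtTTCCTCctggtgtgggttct
Il10ra: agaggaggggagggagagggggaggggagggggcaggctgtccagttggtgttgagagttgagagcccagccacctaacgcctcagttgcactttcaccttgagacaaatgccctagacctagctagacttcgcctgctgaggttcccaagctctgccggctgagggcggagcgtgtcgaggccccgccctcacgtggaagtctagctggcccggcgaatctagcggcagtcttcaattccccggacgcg
Il16: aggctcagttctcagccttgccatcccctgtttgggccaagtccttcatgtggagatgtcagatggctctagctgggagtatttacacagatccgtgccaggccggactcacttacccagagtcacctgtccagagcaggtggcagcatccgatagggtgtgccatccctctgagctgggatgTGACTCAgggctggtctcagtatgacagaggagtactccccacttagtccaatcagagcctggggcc
The motifs searched on both strands were the PU.1 core GAGGAA, the AP-1 site TGANTCA, the C/EBP site TTGCNNAA, the interferon response element (GAAA, any 2 bases, GAAA), the TATA box TATAAA and an NF-κB consensus. The Il23a window held the PU.1 core 2 times on the gene's own strand, and 23.3% of 33465 promoter windows of this length hold it at least once. The Il15 window held 1 AP-1 site and 1 PU.1 core on the opposite strand, and the Il16 window held 1 AP-1 site, which 6.34% of all windows hold. None of the 6 motifs was in the Il10ra window. The shares of all windows were 3.54% for NF-κB, 9.22% for C/EBP, 3.41% for the interferon element and 12.9% for the TATA box, and of the 7 members only Il12a held a TATA box. No 2 matches overlapped in the windows shown, and a match is a run of letters, not a measured binding site.

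The libraries held 3674043 to 19013919 counts on genes in astrocytes and 2271834 to 22274367 in microglia. Levels are given as scaled CPM, counts relative to the size of the library after scaling within each cell type, and are not compared between genes because gene lengths were not used. A count of 0 allows up to 3 counts, which is 0.16 to 0.835 scaled CPM in the astrocyte libraries and 0.13 to 1.38 in the microglia libraries, for counting error only. The summed level of 8 astrocyte markers was 8578 to 10510 scaled CPM in untreated astrocytes and 239 to 268 in untreated microglia, and that of 8 microglial markers was 4971 to 5613 in untreated microglia and 225 to 242 in untreated astrocytes. Markers of further cell types had counts as well. The 6 oligodendrocyte lineage markers summed to 1503 to 2357 in untreated astrocytes and 1845 to 2034 in untreated microglia. The 5 fibroblast markers summed to 300 to 321 and 152 to 178, and the 4 neuron markers to 38.8 to 61.2 and 151 to 168, in the same order. Astrocyte control replicate 2 and microglia Aβ42 replicate 1 stood farther from the replicates of their groups than other libraries did, and calls on members that change without them are given with both values.

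Untreated microglia had more Ebi3, Il10ra, Il10rb, Il10 and Il16, and untreated astrocytes had more Il12a and Il23a. On a common scaling of all 18 libraries, 5 of the 9 members were higher in microglia, against 34.2% of all tested genes, and 2 were lower, against 34.5%, so that most tested genes differed between these cultures. Ebi3 was 107 ± 12.2 scaled CPM in microglia and 2.96 ± 0.81 in astrocytes (SD, n = 3), a log2 difference of 5.32 ± 0.22 (SE, adjusted p = 1.19e-13). The receptor chain Il10ra was 84.4 ± 15.0 in microglia and 2.26 ± 0.21 in astrocytes, a log2 difference of 5.19 ± 0.28 (adjusted p = 4.93e-12). The shared chain Il10rb differed less, with 198 ± 10.4 in microglia and 62.9 ± 19.4 in astrocytes (log2 difference 1.67 ± 0.18, adjusted p = 1.06e-07). Il16 was 35.5 ± 9.75 in microglia and 3.75 ± 1.10 in astrocytes (3.14 ± 0.24, adjusted p = 9.78e-10). Il10 had 34 counts over the untreated microglia and 0 over the untreated astrocytes, at least 14.7-fold higher in microglia against a floor of 3 counts over the group (adjusted p = 3.42e-05). In the other direction, Il12a had 54 counts in untreated astrocytes and 3 in untreated microglia, a ratio of 13.9 with a counting interval of 4.5 to 69.3 (adjusted p = 2.01e-05). Il23a was 2.38 ± 0.31 in astrocytes and 0.531 ± 0.114 in microglia, a log2 difference of -2.03 ± 0.40 (adjusted p = 0.000173). Il15 was 0.244 ± 0.164 in microglia and 0.603 ± 0.321 in astrocytes and did not pass the threshold (-1.46 ± 0.66, adjusted p = 0.0571), but it passed with the scaling of DESeq2 (adjusted p = 0.0493), with library totals (0.0237), without astrocyte control replicate 1 (0.0306) and without microglia control replicate 2 (0.034). Il12b had 2 counts in untreated microglia and 0 in untreated astrocytes.

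**Figure D1:**
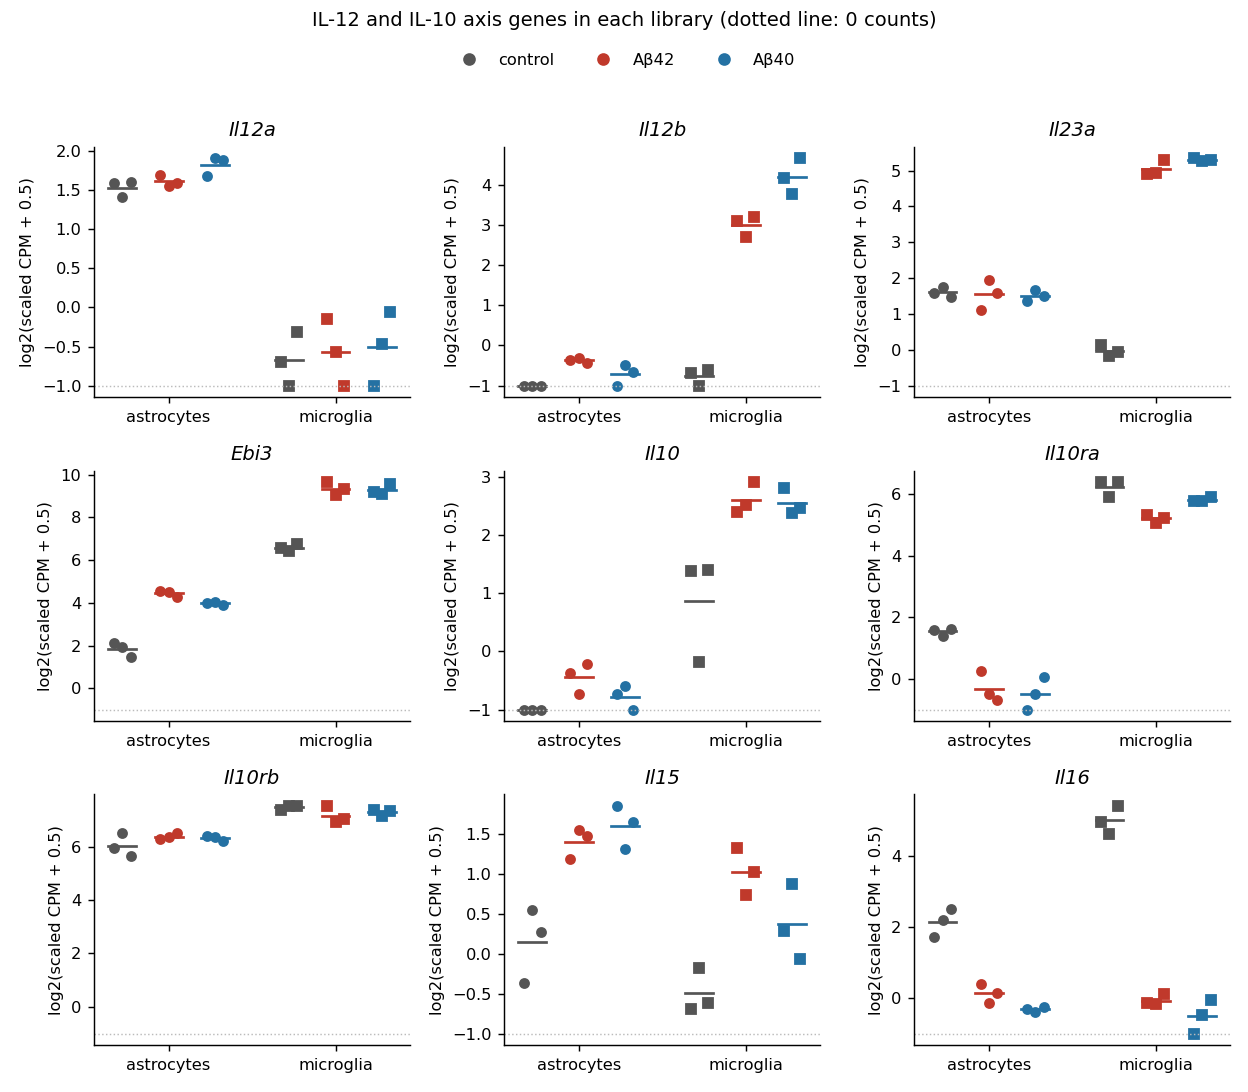
Level of each of the 9 members in each library, as log2 of scaled CPM plus 0.5, with circles for astrocytes, squares for microglia, colours for treatment and a bar at each group mean. The dotted line marks 0 counts, and scaling was done within each cell type. Il12b and Il23a stand high only in the 6 fibril-treated microglia libraries, while Il16 stands high in the 3 untreated microglia libraries.

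In microglia both fibrils were followed by higher levels of the 2 chains of interleukin-23, of Ebi3 and of Il10, and by lower levels of Il10ra and Il16. Of the 7 members tested there, 4 were higher with Aβ42 fibrils, against 27.1% of all tested genes, and 2 were lower, against 26.6%. With Aβ40 fibrils the counts were again 4 and 2, against 19.6% and 21.4%. The same 3 members, Il12b, Il23a and Ebi3, were at least 5-fold higher with each fibril, against 3.69% of tested genes with Aβ42 and 3.36% with Aβ40. The 2 fibril comparisons share the control libraries. Il12b, Il23a and Il10 passed the filter on low counts in all 3 libraries only of the treated groups and Il16 only of the control, so a gene of these levels was testable because it differed, and the counts are a description. Il12a and Il15 did not pass the filter in microglia.

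Il12b, the p40 chain, had 1, 0 and 1 counts in the 3 untreated microglia libraries, 20, 139 and 152 with Aβ42 and 72, 59 and 54 with Aβ40. In scaled CPM these were 0.118, 0 and 0.152 without fibrils, 7.997, 6.02 and 8.67 with Aβ42, and 17.4, 13.2 and 24.8 with Aβ40. Every treated library lay above every control, and every Aβ40 library lay above every Aβ42 library. With only 2 counts in the controls, the ratio of pooled counts to control was 72.9 with Aβ42 (counting interval 20.01 to 605) and 173 with Aβ40 (47.3 to 1442), and the adjusted p was 2.19e-06 and 2.42e-07.

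Il23a, the p19 chain of interleukin-23, had 5, 2 and 3 counts in the controls, 74, 692 and 684 with Aβ42 and 167, 169 and 84 with Aβ40. The scaled levels were 0.589, 0.386 and 0.458 without fibrils, 29.6, 30.0 and 39.0 with Aβ42, and 40.3, 37.8 and 38.6 with Aβ40. The treated libraries were all far above the controls, and the ranges of the fibril groups overlapped. The log2 fold change was 6.03 ± 0.24 with Aβ42 (adjusted p = 2.09e-09) and 6.26 ± 0.25 with Aβ40 (adjusted p = 2.32e-09), which is 65.4-fold and 76.5-fold. Its promoter is the window with 2 PU.1 cores shown above. Il12a, the p35 chain that would complete interleukin-12, had at most 4 counts in any microglia library, with 3 in all without fibrils, 5 with Aβ42 and 2 with Aβ40. At this depth no change of Il12a in microglia was detectable.

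Ebi3, the β chain of interleukin-27 and interleukin-35, was 93.2, 86.3 and 109 scaled CPM in untreated microglia. It was 811, 530 and 647 with Aβ42 and 579, 548 and 751 with Aβ40. The treated libraries lay above all controls and overlapped each other. The log2 fold change was 2.78 ± 0.18 with Aβ42 (adjusted p = 9.05e-08) and 2.70 ± 0.18 with Aβ40 (adjusted p = 1.48e-07), and the mean rose from 96.1 ± 11.5 to 663 ± 141 and 626 ± 109 (SD, n = 3).

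Il10 had 18, 2 and 14 counts in untreated microglia, or 2.12, 0.386 and 2.13 scaled CPM. With Aβ42 it had 12, 121 and 124 counts (4.80, 5.24 and 7.07 scaled CPM), and with Aβ40 it had 27, 21 and 11 (6.51, 4.70 and 5.06). All treated libraries were above the controls, of which replicate 2 was the lowest. With Aβ42 fibrils Il10 rose 3.55-fold, a log2 fold change of 1.83 ± 0.35 (adjusted p = 0.000869), and with Aβ40 fibrils it rose 3.27-fold, a log2 fold change of 1.71 ± 0.41 (adjusted p = 0.00511).

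The ligand-specific chain of the interleukin-10 receptor moved the other way in microglia. Il10ra was 84.1, 60.1 and 83.7 scaled CPM in the controls, 39.6, 33.2 and 37.3 with Aβ42 and 54.8, 54.8 and 59.3 with Aβ40. The 3 groups did not overlap, with the Aβ42 libraries the lowest. The log2 fold change was -1.07 ± 0.14 with Aβ42 (adjusted p = 4.89e-05) and -0.44 ± 0.14 with Aβ40 (adjusted p = 0.0262). The fall with Aβ40 no longer passed without control replicate 1 (adjusted p = 0.144), control replicate 3 (0.133), Aβ40 replicate 1 (0.0907) or Aβ40 replicate 2 (0.0867). The shared chain Il10rb was 168, 185 and 182 in the controls, 183, 122 and 130 with Aβ42 and 167, 143 and 162 with Aβ40, and did not pass the threshold (log2 fold change -0.31 ± 0.14, adjusted p = 0.0847, and -0.18 ± 0.15, adjusted p = 0.35). Without Aβ42 replicate 1, the library that stood apart, the Il10rb value with Aβ42 was -0.50 (adjusted p = 7.86e-05), and with library totals as the scaling it was -0.34 (adjusted p = 0.0424).

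Il16 nearly disappeared from microglia. It had 258, 124 and 273 counts in the controls, 1, 9 and 10 with Aβ42 and 0, 1 and 1 with Aβ40, which is 30.4, 23.9 and 41.6 scaled CPM against 0.4, 0.39 and 0.57 and against 0, 0.224 and 0.46. No treated library reached the lowest control, and the pooled level was 69.9-fold lower with Aβ42 (counting interval 44.9 to 115, adjusted p = 1.45e-08). With Aβ40, where 2 counts were left in all, the ratio was 175 (48.2 to 1446, adjusted p = 1.46e-07). Its fitted log2 fold change with Aβ40 was -7.32 and ranged from -7.95 without Aβ40 replicate 3 to -6.67 without Aβ40 replicate 1. Il15 had 1, 2 and 1 counts without fibrils, 5, 27 and 27 with Aβ42 and 3, 6 and 1 with Aβ40. It was too low to be tested in microglia, and the ratio of its pooled counts to control was 6.92 (counting interval 2.56 to 26.2) with Aβ42 and 4.69 (1.35 to 20.5) with Aβ40. These intervals hold counting error only and not the spread between libraries.

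The fall of Il10ra and Il16 stood beside a lower sum of the markers of the cells themselves. In bulk cultures, fewer cells of a type and less RNA per cell cannot be told apart. The 8 microglial markers, all with counts in each group, summed to 1575 to 1890 scaled CPM with Aβ42 and 1823 to 2035 with Aβ40, below the untreated range given above. The list did not move as one. With Aβ42, 6 of the 8 fell, with Csf1r at -3.87 on the log2 scale (adjusted p = 7.58e-10), but Itgam rose (0.90, adjusted p = 8.71e-06) and Tmem119 was 0.11 (adjusted p = 0.777). With Aβ40, 7 fell and Itgam rose (1.04, adjusted p = 3.11e-06). The border macrophage markers, 3 of 4 with counts and Cd163 at 0, were 937 to 1019 without fibrils, 60.6 to 89.6 with Aβ42 and 81.6 to 91.01 with Aβ40. This sum was mostly Mrc1, which fell (-3.90, adjusted p = 1.32e-09, and -3.56, adjusted p = 2.9e-09), while F13a1 of the same list, with 3 counts in the controls, rose with both fibrils (adjusted p = 2.18e-05 and 0.0242). Il16 is also made by lymphocytes, whose 8 measured markers were 2.13 to 9.76 in the controls, 0 to 0.855 with Aβ42 and 0.447 to 0.919 with Aβ40. Only 3 of these 8 markers had counts in the controls, nearly all of them on Cd79b, while Cd3e, Cd3g, Ncr1 and Klrb1a were among those at 0. The dendritic cell markers were 8.11 to 9.30 without fibrils, with Xcr1 and Ccr7 at 0, and 4.40 to 5.803 and 2.90 to 5.06 with Aβ42 and Aβ40. The 6 oligodendrocyte lineage markers were 2107 to 2766 with Aβ42 and 2138 to 2588 with Aβ40, higher than in untreated microglia. The part of these markers in the changes of Il10ra and Il16 was not tested.

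**Figure D2:**
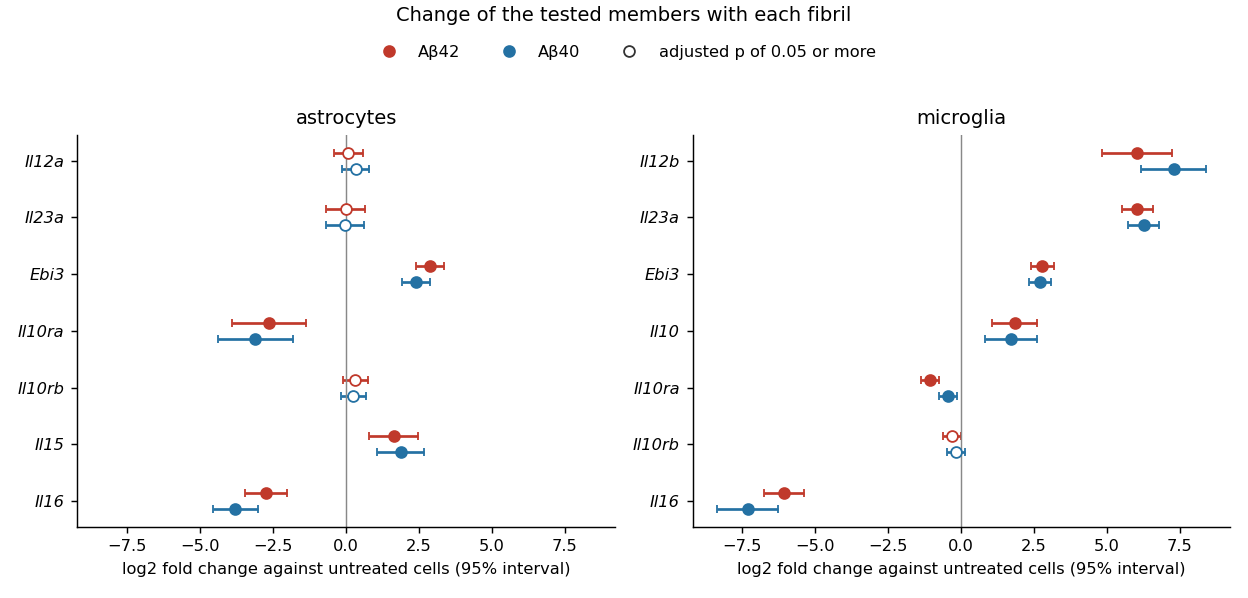
Log2 fold change of each tested member against untreated cells, with its 95% interval, for Aβ42 fibrils (red) and Aβ40 fibrils (blue), in astrocytes on the left and microglia on the right. Filled points have an adjusted p under 0.05. Il12b and Il23a lie near 6 to 7 in microglia and Il23a lies near 0 in astrocytes, whereas Ebi3 lies between 2.40 and 2.88 in both cell types.

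In astrocyte cultures the cytokine chains that rose were Ebi3 and Il15. Of the 7 members tested in astrocytes, 2 were higher with Aβ42 fibrils, against 16.5% of all tested genes, and 2 were lower, against 20.4%. With Aβ40 fibrils 2 were higher, against 14.9%, and 2 were lower, against 18.4%. Ebi3 alone was at least 5-fold higher, against 3.03% of tested genes with Aβ42 and 2.82% with Aβ40. Il15 passed the filter in all 3 libraries only of the treated groups, and Il10ra and Il16 only of the control.

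Ebi3 was 3.90, 3.35 and 2.25 scaled CPM in untreated astrocytes, 23.2, 22.0 and 18.9 with Aβ42 and 15.4, 15.99 and 14.5 with Aβ40. The 3 groups did not overlap. The log2 fold change was 2.88 ± 0.21 with Aβ42 (adjusted p = 1.71e-06) and 2.40 ± 0.21 with Aβ40 (adjusted p = 8e-06). Il15 was much lower in level, with 1, 4 and 10 counts in the controls, 26, 24 and 19 with Aβ42 and 30, 37 and 40 with Aβ40. Its scaled level rose from 0.646 ± 0.343 to 2.16 ± 0.34 with Aβ42 and 2.58 ± 0.57 with Aβ40 (SD, n = 3), a log2 fold change of 1.64 ± 0.38 (adjusted p = 0.00581) and 1.88 ± 0.36 (adjusted p = 0.00215). All treated libraries were above all controls.

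Of the interleukin-12 and interleukin-23 chains, Il12a and Il23a showed no such rise in astrocytes, and Il12b was too low to test. Il12a was 2.50, 2.15 and 2.53 scaled CPM in the controls, 2.75, 2.43 and 2.52 with Aβ42 and 2.70, 3.26 and 3.19 with Aβ40. Its log2 fold change was 0.08, with a 95% interval of -0.40 to 0.57, and 0.34, with an interval of -0.12 to 0.80, although all 3 Aβ40 libraries lay above the controls. Il23a was 2.50, 2.87 and 2.25 in the controls, 1.65, 3.34 and 2.52 with Aβ42 and 2.08, 2.67 and 2.32 with Aβ40. The intervals of its log2 fold change were -0.68 to 0.66 and -0.70 to 0.61, around values of -0.01 and -0.04. Il12b had 0 counts in the untreated astrocytes, 4, 3 and 2 with Aβ42 and 0, 4 and 2 with Aβ40. Il10 had 0 counts in the controls, 4, 1 and 3 with Aβ42 and 1, 3 and 0 with Aβ40. These 2 genes were at or near the floor in every astrocyte library and no fold is given for them.

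Il10ra fell in astrocyte cultures from 2.50, 2.15 and 2.60 scaled CPM to 0.686, 0.202 and 0.12 with Aβ42 and to 0, 0.214 and 0.531 with Aβ40. These are 13 and 12 counts over the treated groups against 55 over the controls. Every treated library lay below every control, and the fibril groups overlapped each other. The log2 fold change was -2.63 ± 0.58 with Aβ42 (adjusted p = 0.00428) and -3.12 ± 0.58 with Aβ40 (adjusted p = 0.00172), and it was -3.80 without Aβ42 replicate 1 and -4.04 without Aβ40 replicate 3. Il16 fell from 2.78, 4.07 and 5.21 to 0.824, 0.404 and 0.6 with Aβ42 and 0.312, 0.267 and 0.332 with Aβ40, again without overlap (log2 fold change -2.74 ± 0.33, adjusted p = 6.91e-05, and -3.79 ± 0.35, adjusted p = 1.11e-05). Il10rb was 62.1, 89.8 and 49.9 in the controls, 77.2, 81.8 and 90.2 with Aβ42 and 83.5, 81.1 and 73.0 with Aβ40. It did not pass the threshold, with a log2 fold change of 0.31 ± 0.19 (adjusted p = 0.236) for Aβ42 and 0.25 ± 0.19 (adjusted p = 0.364) for Aβ40. Without astrocyte control replicate 2, the highest control, it passed with both fibrils (0.60, adjusted p = 0.00276, and 0.53, adjusted p = 0.00647).

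The 2 members that fell in astrocyte cultures did so beside the microglial markers in those cultures. The 8 microglial markers summed to 225 to 242 scaled CPM in untreated astrocytes, 18.4 to 23.3 with Aβ42 and 14.3 to 16.8 with Aβ40, and all 8 had counts in each group. The border macrophage markers were 16.4 to 18.7, 0.48 to 1.42 and 0.664 to 1.25 in the same order, with 3 of 4 detected and Cd163 at 0. The 8 lymphocyte markers were at or near 0 throughout, at no more than 0.278 scaled CPM in any library. Sums of other cell types were lower too. The 8 astrocyte markers were 5586 to 5822 with Aβ42 and 6193 to 6517 with Aβ40, below the untreated range given above. Slc1a2 and Aldh1l1 of that list rose with both fibrils, and Aqp4 with Aβ40. The fibroblast markers were 161 to 173 and 174 to 204, and the oligodendrocyte lineage markers 1139 to 1246 and 1215 to 1251, with Aβ42 and Aβ40. Ebi3, which rose in astrocyte cultures, was far higher in microglia, at 663 ± 141 scaled CPM with Aβ42 and 626 ± 109 with Aβ40. The part of microglial RNA in the astrocyte values of Ebi3, Il10ra and Il16 was not tested.

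**Figure D3:**
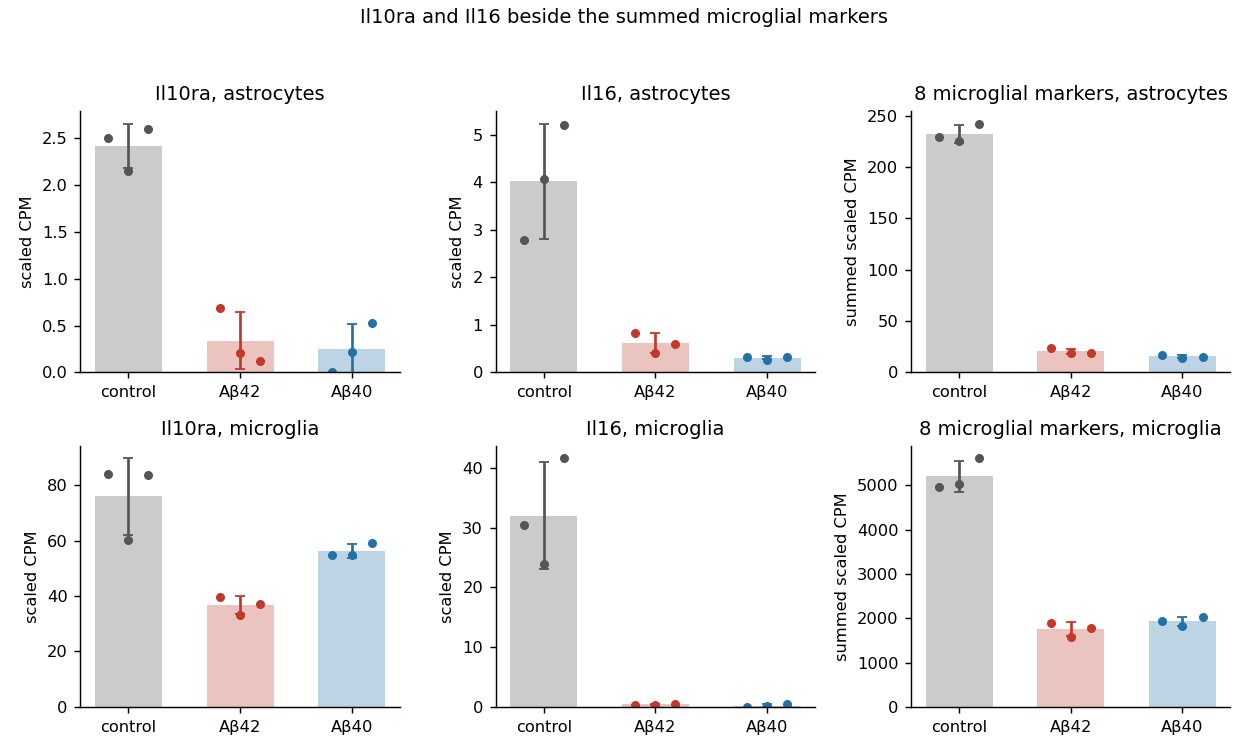
Scaled CPM of Il10ra and Il16 and the summed scaled CPM of the 8 microglial markers in astrocyte cultures (top) and microglia (bottom), with points for libraries, bars for means and error bars for the SD of 3 libraries. In astrocyte cultures all 3 quantities are lower in every treated library than in every control. In microglia Il16 is close to 0 with both fibrils while Il10ra stays at 33.2 to 59.3.

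The direct comparison of the fibrils asked whether Aβ42 and Aβ40 differ. In microglia 2 of the 7 tested members were lower with Aβ42 than with Aβ40, against 9.01% of all tested genes, and these were Il12b and Il10ra. Il12b was 7.56 ± 1.38 scaled CPM with Aβ42 and 18.5 ± 5.89 with Aβ40 (log2 difference -1.26 ± 0.24, adjusted p = 0.0135). Il10ra was 36.7 ± 3.22 with Aβ42 and 56.3 ± 2.60 with Aβ40 (-0.63 ± 0.15, adjusted p = 0.0214). Both lost the call when only the libraries of the 2 fibrils were fitted (adjusted p = 0.0568 and 0.0537). The Il12b call was also lost without Aβ42 replicate 2 (adjusted p = 0.0778), Aβ40 replicate 1 (0.0583) or Aβ40 replicate 3 (0.0557), and the Il10ra call without Aβ42 replicate 2 (0.104) or replicate 3 (0.0921) or any of the 3 Aβ40 replicates (0.0652 to 0.0796). Il10rb, -0.13 ± 0.15 in all libraries, was lower with Aβ42 without Aβ42 replicate 1 (-0.32, adjusted p = 0.00695). The interval of the log2 difference was -0.53 to 0.08 for Il23a, -0.28 to 0.44 for Ebi3 and -0.58 to 0.82 for Il10.

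In astrocytes none of the 7 tested members passed between the fibrils by edgeR or by DESeq2, against 0.0855% of all tested genes. At an unadjusted p under 0.05 there were 2 of the 7 members, both higher with Aβ42, against 737 of all 11690 tested genes. Ebi3 was 21.4 ± 2.25 with Aβ42 and 15.3 ± 0.76 with Aβ40 (log2 difference 0.49 ± 0.17, adjusted p = 0.45), and all 3 Aβ42 libraries were above all 3 Aβ40 libraries. Il16 had a log2 difference of 1.05 ± 0.46 (adjusted p = 0.774) on 21 and 13 counts. The interval of the difference was -0.83 to 0.34 for Il15.

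To ask whether a member responded differently in microglia and astrocytes, an interaction term was fitted over all 18 libraries. With each fibril 3 of the 9 members passed, against 37.3% of all tested genes for Aβ42 and 32.5% for Aβ40, so the count is near that of all genes. Values are given for the 5 members tested in both cell types, and all 3 that passed are among these. Il23a rose more in microglia, by a log2 difference of 6.05 ± 0.43 with Aβ42 (adjusted p = 3.73e-09) and 6.29 ± 0.43 with Aβ40 (adjusted p = 2.39e-09). Il16 fell more in microglia, with differences of -3.32 ± 0.55 (adjusted p = 0.000102) and -3.57 ± 0.89 (adjusted p = 0.00458). Treated Il16 was low in both cell types, with 20 and 2 counts in microglia and 21 and 13 in astrocytes. The differences thus largely follow the untreated levels, 35.5 scaled CPM in microglia and 3.75 in astrocytes. Il10ra fell less in microglia than in astrocyte cultures, with differences of 1.55 ± 0.52 (adjusted p = 0.0243) and 2.65 ± 0.52 (adjusted p = 0.000582). The Il10ra difference with Aβ42 rested on 13 counts in treated astrocytes. It did not pass without astrocyte control replicate 3 (adjusted p = 0.0811), astrocyte Aβ42 replicate 2 (0.0874) or astrocyte Aβ42 replicate 3 (0.0768), nor in the fit with the replicate number as a block (0.0521). Ebi3, which rose in the cultures of both cell types, gave -0.13 (95% interval -0.70 to 0.44) with Aβ42 and 0.27 (-0.34 to 0.88) with Aβ40. Il10rb gave -0.64 ± 0.25 (adjusted p = 0.05003) and -0.45 ± 0.25 (adjusted p = 0.184). Without astrocyte control replicate 2 it passed with both fibrils (-0.92, adjusted p = 0.000893, and -0.72, adjusted p = 0.00776), and for Aβ42 it also passed without microglia Aβ42 replicate 1 (-0.81, adjusted p = 0.01) and without a filter on low counts (-0.65, adjusted p = 0.0422). For Il12b and Il10 the untreated astrocytes were at 0 counts, so the size of the astrocyte response could not be set beside that of microglia.

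The chains through which these cytokines act were measured next. Of 13 listed chains, 11 are among the symbols, and 6 were tested in astrocytes and 3 in microglia. In astrocytes 3 of the 6 were higher with each fibril, against 16.5% and 14.9% of all tested genes, and 1 was lower with Aβ42 and 2 with Aβ40, against 20.4% and 18.4%. Il12rb1 and Il2rg lay below the filter on low counts in every untreated astrocyte library. Both were testable only through the treated groups, so these counts are a description. In microglia each fibril left Il6st and Il2rg higher and Cd4 lower. Il12rb1, the chain that interleukin-12 and interleukin-23 receptors share, had 0, 1 and 2 counts in untreated astrocytes, 112, 78 and 52 with Aβ42 and 70, 138 and 123 with Aβ40. The ratio of pooled counts was 54.1 (counting interval 18.3 to 264, adjusted p = 7.74e-07) and 55.9 (19.0 to 273, adjusted p = 7.69e-07), and no treated library overlapped the controls. In microglia the same chain had 0 counts in the controls and in all Aβ40 libraries but one, which had 1, and 0, 9 and 9 with Aβ42. Its interleukin-12 partner Il12rb2 had 3 counts over all astrocyte libraries and 0 over all microglia libraries. Il23r and Il15ra are not among the symbols.

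Il6st, the gp130 chain that interleukin-27 shares with other cytokines, rose in both cell types. It was 440 ± 40.6 scaled CPM in untreated astrocytes, 1028 ± 55.2 with Aβ42 and 1004 ± 85.2 with Aβ40 (log2 fold change 1.22 ± 0.12, adjusted p = 1.24e-05, and 1.19 ± 0.12, adjusted p = 1.68e-05), and 216 ± 1.42, 330 ± 57.7 and 421 ± 18.5 in microglia (0.60 ± 0.12, adjusted p = 0.00118, and 0.96 ± 0.12, adjusted p = 4.35e-05). Il2rg, the common chain used by interleukin-15, rose in microglia from 75.7 ± 10.2 to 223 ± 79.3 and 265 ± 6.07 (log2 fold change 1.54 ± 0.20, adjusted p = 5.04e-05, and 1.81 ± 0.20, adjusted p = 1.78e-05). In astrocytes it had 13 counts in the controls and rose by 1.98 ± 0.42 and 1.40 ± 0.43 on the log2 scale (adjusted p = 0.00326 and 0.0268), and the Aβ40 call was lost without control replicate 1 (adjusted p = 0.069), Aβ40 replicate 1 (0.0632) or Aβ40 replicate 2 (0.0779). Il27ra, the ligand-specific interleukin-27 chain, was lower in astrocytes with Aβ40 (-0.87 ± 0.27, adjusted p = 0.0293), and with Aβ42 the value was -0.60 ± 0.27 (adjusted p = 0.111). The Aβ40 call was lost without control replicate 1 or 3 or any Aβ40 replicate (adjusted p from 0.0743 to 0.0895), and the Aβ42 value passed without control replicate 2 (-0.73, adjusted p = 0.0447). In microglia it had 0 counts in the controls, 0, 5 and 7 with Aβ42 and 2, 2 and 1 with Aβ40. Il22ra2, a soluble decoy receptor for interleukin-22, did not pass in astrocytes (1.22 ± 0.52, adjusted p = 0.0942, and 1.23 ± 0.51, adjusted p = 0.0901), but did without control replicate 2 (1.68 with both fibrils, adjusted p = 0.0217 and 0.0206). Cd4, which binds interleukin-16 and is also carried by rat microglia and macrophages, fell in microglia from 727 ± 119 to 36.0 ± 7.83 and 32.7 ± 5.32 (log2 fold change -4.37 ± 0.20, adjusted p = 4.82e-09, and -4.48 ± 0.20, adjusted p = 5.83e-09). It fell in astrocyte cultures as well (log2 fold changes of -3.26 ± 0.25 and -5.16 ± 0.29, adjusted p = 2.04e-06 and 2.4e-07), beside the microglial markers given above. The other IL-10 family ligands Il20, Il22 and Il24 had 0 to 8 counts over all 9 libraries of a cell type and could not be tested.

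Among the kinases, STAT factors and SOCS inhibitors that carry these signals, Stat5a rose in astrocytes and fell in microglia, and Socs3 rose in microglia. In astrocytes 8 of 10 tested genes were higher with Aβ42 and 7 with Aβ40 and none was lower, with a median log2 fold change of 1.03 and 0.95 against 0.00 over all tested genes. The shares of all tested genes were 16.5% and 14.9% higher. Stat5a rose from 20.7 ± 2.56 scaled CPM to 115 ± 15.4 with Aβ42 and 97.5 ± 6.28 with Aβ40 (log2 fold change 2.47 ± 0.15 and 2.23 ± 0.15, adjusted p = 4.98e-07 and 1.15e-06). Jak2, a kinase of the interleukin-12 receptor, rose by 2.06 ± 0.16 and 2.07 ± 0.16 (adjusted p = 2.98e-06 and 3.28e-06), and the inhibitor Socs1 by 2.04 ± 0.58 and 2.08 ± 0.57 (adjusted p = 0.0171 and 0.0164). In microglia 4 of the 10 were higher and 3 lower with Aβ42, and 4 were higher and 2 lower with Aβ40, with medians of -0.05 and 0.06 against 0.01 over all tested genes. Of all tested genes 27.1% were higher and 26.6% lower with Aβ42, and 19.6% and 21.4% with Aβ40, so the lower calls were near that share. The inhibitor Socs3 rose from 3.24 ± 0.47 to 270 ± 65.3 with Aβ42 and 213 ± 7.79 with Aβ40 (log2 fold change 6.39 ± 0.22 and 6.04 ± 0.22, adjusted p = 7e-10 and 1.3e-09). Socs1 rose by 5.02 ± 0.51 and 3.26 ± 0.71 (adjusted p = 5.41e-06 and 0.00275). Stat5a, which rose in astrocytes, fell in microglia from 48.6 ± 2.39 to 16.4 ± 3.10 and 15.3 ± 1.65 (-1.64 ± 0.14 and -1.65 ± 0.15, adjusted p = 1.26e-06 and 3.05e-06). By the interaction term the response in microglia minus that in astrocytes was -4.09 and -3.90 for Stat5a (adjusted p = 2.83e-11 and 1.11e-10) and 5.4 and 5.28 for Socs3 (adjusted p = 4.07e-07 and 6.59e-07). In all, 9 of the 10 genes differed in response with Aβ42 and 7 with Aβ40, against 37.3% and 32.5% of all tested genes. Stat4, the factor through which interleukin-12 acts in lymphocytes, had 2 counts over all astrocyte libraries and 0 over all microglia libraries.

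Genes known to rise with interleukin-10 in macrophages were higher or did not pass in both cell types, and each also responds to other signals. In microglia 7 of 8 tested genes were higher with Aβ42 and 6 with Aβ40 (median log2 fold change 1.67 and 1.19), against 27.1% and 19.6% of all tested genes. In astrocytes 6 of 8 were higher with each fibril (1.09 and 0.99), against 16.5% and 14.9%, and none was lower in either cell type. Beside Socs3, the leading genes in microglia were Il1rn, the antagonist of the interleukin-1 receptor (146 ± 56.0 scaled CPM to 1367 ± 651 and 937 ± 356, log2 fold change 3.23 ± 0.38 and 2.68 ± 0.37, adjusted p = 1.85e-05 and 9.33e-05), and Bcl3, a regulator of NF-κB target genes (2.15 ± 0.19 and 2.06 ± 0.20, adjusted p = 1.87e-06 and 4.82e-06). In astrocytes Il1rn rose from 1.84 ± 1.41 to 203 ± 8.63 and 137 ± 5.17 (6.80 ± 0.29 and 6.23 ± 0.29, adjusted p = 3.07e-08 and 6.21e-08), Bcl3 rose by 1.86 ± 0.23 and 1.98 ± 0.23 (adjusted p = 8.39e-05 and 6e-05), and the arginase gene Arg2 by 1.17 ± 0.24 and 1.11 ± 0.23 (adjusted p = 0.00258 and 0.00363). Socs3 in astrocytes was 38.2 ± 27.0, 78.7 ± 15.4 and 66.6 ± 8.38 and did not pass (adjusted p = 0.0942 and 0.205). With Aβ42 it passed without control replicate 2 (0.57, adjusted p = 0.0406), without control replicate 3 (1.69, adjusted p = 0.00991) and by DESeq2 (1.04, adjusted p = 0.0426). With Aβ40 it passed without control replicate 3 (1.45, adjusted p = 0.0208).

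**Figure D4:**
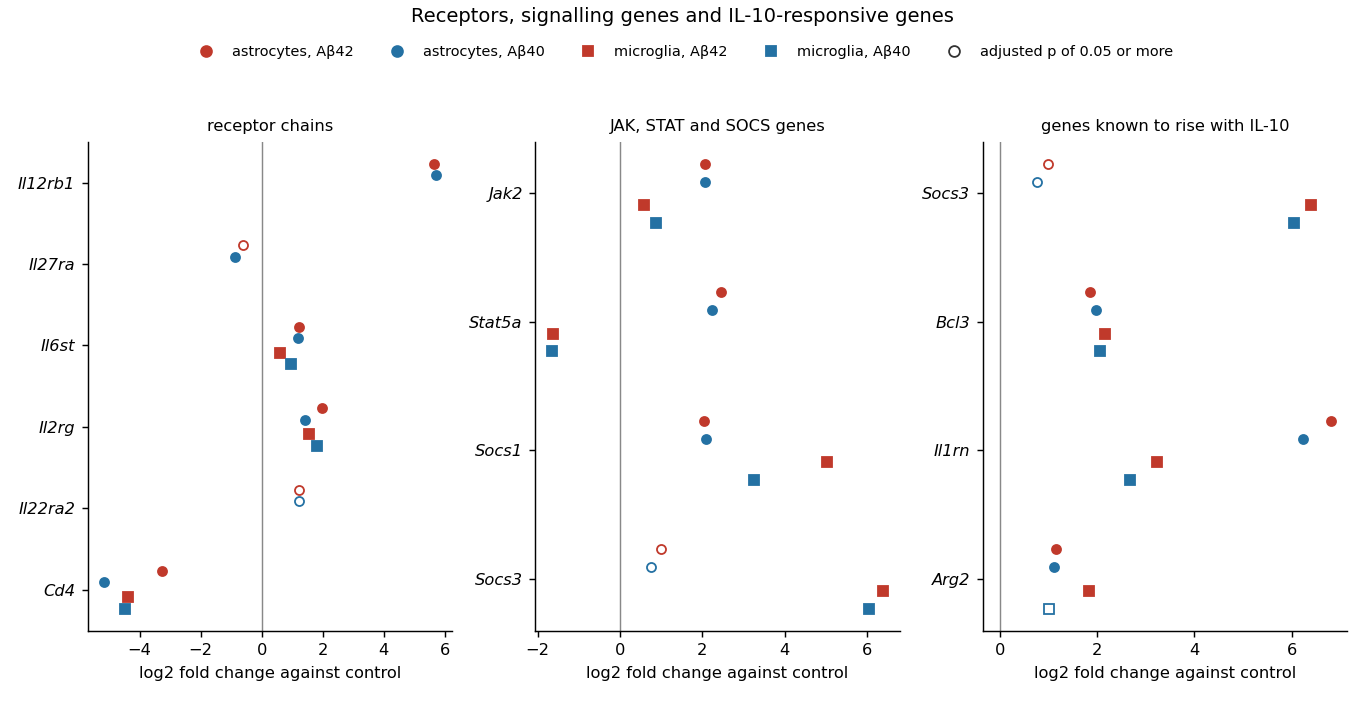
Log2 fold change against untreated cells for the named receptor chains, for JAK, STAT and SOCS genes and for genes known to rise with interleukin-10, with circles for astrocytes, squares for microglia, red for Aβ42 and blue for Aβ40. Filled symbols have an adjusted p under 0.05. Socs3 lies near 6 in microglia, and Stat5a lies above 2 in astrocytes and below -1 in microglia.

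Of the transcription factors known to act on Il12b, Il10, Il15 or Il27, Irf8 and Irf4 fell and Cebpb rose in microglia. Of 13 tested there, 5 were higher and 5 lower with Aβ42, and 4 were higher and 6 lower with Aβ40 (median log2 fold change 0.02 and 0.03), against 27.1% higher and 26.6% lower of all tested genes with Aβ42 and 19.6% and 21.4% with Aβ40. Irf8, which is known to activate Il12b in myeloid cells, fell from 180 ± 27.7 scaled CPM to 9.78 ± 1.38 with Aβ42 and 13.5 ± 4.44 with Aβ40 (-4.26 ± 0.20 and -3.71 ± 0.21, adjusted p = 6.44e-09 and 3.47e-08). The part of these factors in the changes of the members was not tested. Irf4 fell from 30.8 ± 1.40 to 1.79 ± 1.24 and 1.46 ± 0.30 (-4.62 ± 0.26 and -4.36 ± 0.31, adjusted p = 2.57e-08 and 2.99e-07). Cebpb rose from 14.9 ± 3.45 to 203 ± 96.5 and 65.1 ± 7.27 (3.77 ± 0.34 and 2.09 ± 0.34, adjusted p = 2.01e-06 and 0.000377). In astrocytes 7 of 12 tested factors were higher and 2 lower with each fibril (median 1.29 and 1.14), against 16.5% and 14.9% higher and 20.4% and 18.4% lower of all tested genes. Nfkbiz, an NF-κB cofactor known to be needed for Il12b transcription, rose from 10.2 ± 3.24 to 184 ± 18.2 and 158 ± 25.3 (4.19 ± 0.22 and 3.97 ± 0.22, adjusted p = 1.38e-07 and 2.15e-07). By the interaction term its response in microglia minus that in astrocytes was -2.58 and -2.30 (adjusted p = 2.53e-07 and 1.26e-06). In all, 7 of the 12 factors tested in both cell types differed in response with each fibril, against 37.3% and 32.5% of all tested genes. The largest differences were those of Irf8 (-4.13 and -3.71). Spi1 (1.98 and 2.33) and, with Aβ42, Cebpb (1.87) differed in the other direction. Irf1, known to act on Il15 and Il27, rose in astrocytes by 2.41 ± 0.13 and 2.53 ± 0.13 (adjusted p = 2.09e-07 and 1.67e-07), and Nfkb1 by 2.23 ± 0.14 and 2.14 ± 0.14 (adjusted p = 4.11e-07 and 6.51e-07). Spi1, which encodes the PU.1 factor of myeloid cells, fell in astrocyte cultures (-2.14 ± 0.30 and -2.82 ± 0.31, adjusted p = 0.000217 and 3.79e-05), beside the microglial markers given above.

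The genes whose profile over the 9 libraries of a cell type was most like that of a member are named as a description, since all 9 libraries share the same 3 treatments. Pearson's r of log2 scaled CPM was taken over 10836 other genes in microglia. For Il12b these were Gimap6 (r = 0.997) and Zbtb10 (0.996), for Il23a Irak2 (0.999) and Slamf7 (0.998), and for Ebi3 Niacr1 (0.996) and Pfkp (0.996). Il10 was most like Stxbp2 (0.99) and Ly6e (0.98), Il10ra was most like Diexf (0.98) and Naa60 (0.972), and Il16 was most like MGC112715 (0.998) and Rgs10 (0.997). Over 11689 genes in astrocytes, Ebi3 was most like Elk3 (0.996) and Runx1 (0.995), Il15 like Rab38 (0.99) and Pls1 (0.989), Il10ra like Dkk3 (0.984) and Hcls1 (0.98), and Il16 like Cybb (0.991) and Mknk1 (0.988).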

How the data were processed

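Per the labels, poly(A) RNA was prepared with a stranded mRNA kit, and the submitters' processing notes name STAR, Salmon, DESeq2 and the rn5 genome without versions. The authors deposited 1 table of counts for each library, whole numbers of reads for each gene symbol that are not normalized, and no normalized values were used. Rows that name no gene held 26.0% to 34.3% of counts in astrocytes and 21.7% to 24.5% in microglia and were left out. Whether counting used strand is not given in the sources used here. Tests were made in R 4.3.3 with edgeR 4.0.16 (TMM scaling, filterByExpr, glmQLFit and glmQLFTest on the 9 libraries of a cell type, without covariates) and Benjamini-Hochberg adjustment over all 11690 genes tested in astrocytes and 10837 in microglia. A fit of all 18 libraries on 11581 genes gave the interaction and the comparison of untreated cells. The call was an adjusted p under 0.05, marked also at 5-fold or more. Intervals are 95%, and those called counting intervals are exact binomial intervals on pooled counts, for counting error only. DESeq2 1.42.0, other scalings and filters, a replicate block and leaving out each library were tried as alternatives. The test was checked on simulated data. Replicate libraries differed beyond sampling noise, so none was counted as a duplicate. The members and lists were chosen with earlier results of these data known. The text names every member, every tested receptor chain, up to 3 genes with the largest change in each other list (1 item is not reported here) and the 2 genes most like each changed member. Il12rb2, Stat4 and Socs3 in astrocytes were added after their values were seen.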

Additional observations from a re-analysis of the deposited data

Results flagged for a closer look

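The response of 3 members differed between the cell types by the interaction test in the fit of all 18 libraries, with both fibrils. That is 3 of 9 members, against 37.3% of all tested genes for Aβ42 and 32.5% for Aβ40, a share near that of all genes. For Il23a the log2 response in microglia minus that in astrocytes was 6.05 with Aβ42 and 6.29 with Aβ40, and the gene was 29.6 to 40.3 scaled CPM in all 6 treated microglia libraries and 1.65 to 3.34 in all 9 astrocyte libraries. For Il16 the difference was -3.32 with Aβ42 and -3.57 with Aβ40, and the latter was -2.91 without microglia Aβ40 replicate 1 and -4.20 without microglia Aβ40 replicate 3. Treated Il16 had few counts in both cell types, so these differences largely follow its untreated levels. For Il10ra it was 1.55 with Aβ42 and 2.65 with Aβ40, and these were 2.71 without astrocyte Aβ42 replicate 1 and 3.57 without astrocyte Aβ40 replicate 3. Microglial markers moved with Il10ra and Il16 in the astrocyte cultures, and their part in these differences was not tested.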

How the results depend on the processing

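The direction of each member's call against control held under every alternative that could test it. With a filter of 10 counts in every library fewer members could be tested, and the members called were 1 in astrocytes with each fibril, 2 in microglia with each fibril, 1 between the fibrils in microglia, 0 for the interaction with each fibril and 2 between untreated cells. Fitting only the 2 fibril groups left 0 members called between the fibrils in microglia, and leaving out single libraries gave 0 to 3. Values that changed sign were small with all libraries, apart from Il10ra between the fibrils in astrocytes (0.48 ± 0.76, on 13 and 12 counts). Il23a in astrocytes was 0.0084 with Aβ42 without a filter. Without single libraries Il23a in astrocytes ranged from -0.28 to 0.27 with Aβ42, from -0.17 to 0.055 with Aβ40 and from -0.24 to 0.32 between the fibrils, where Il10ra ranged from -0.68 to 1.40 and Il10rb from -0.0023 to 0.13. In microglia between the fibrils, Ebi3 ranged from -0.086 to 0.23 and Il10 from -0.089 to 0.29, and the Ebi3 interaction with Aβ42 ranged from -0.29 to 0.21. No pairing by replicate number was seen, though 3 libraries a group are too few to exclude it. After group means were removed, same-numbered libraries correlated from -0.586 to 0.403 in astrocytes and from -0.207 to 0.241 in microglia. Differently numbered libraries correlated over a like range, from -0.519 to 0.577 and from -0.234 to 0.244. A replicate block changed no count of members beyond 1.5 times, and among members only the Il10ra interaction with Aβ42 lost its call (1.55, adjusted p = 0.0521). Il27ra and Il2rg with Aβ40 in astrocytes also lost theirs in the block (adjusted p = 0.0765 and 0.0544). In the lists, the 2 receptor chains lower in astrocytes with Aβ40 became 1 in the replicate block, in the fit of 2 groups and without control replicate 3 or Aβ40 replicate 3, and the 2 signalling genes lower in microglia with Aβ40 became 4 in the fit of 2 groups. Without a filter the 2 receptor chains higher in microglia with Aβ42 became 4, and with 10 counts in every library the 3 chains higher in astrocytes became 1 with each fibril and no chain was lower. Without astrocyte control replicate 2 the receptor chains lower in astrocytes with Aβ42 went from 1 to 2 and the signalling genes lower there from 0 to 1 (Jak3). The depth limits Il12b and Il10 in astrocytes and Il12a and Il15 in microglia.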
